A study of Caenorhabditis elegans with 2 samples.

Results

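The regions described here are the tier of pooled EGL-13 ChIP-seq regions that follows directly after the authors' list of reproducible peaks. The authors ranked 30000 regions from the pooled reads of both replicates, background included, and kept the 2294 strongest as their optimal list, the set that passed a test of reproducibility between ranked replicate lists (IDR). The next tier is the run of 2294 ranks that follows in the pooled list, chosen by the authors' signal value, after leaving out the 89 regions that overlap an optimal region. It held 2205 of the 30000 regions. Values are set beside those of the 2294 optimal regions and of 25127 other weaker pooled regions, ranked below the next tier and likewise free of any optimal region. The study had 1 group and no contrast of conditions: whole hermaphrodite L1 larvae of strain GOU883, collected 6 h after synchronization by starvation, whose EGL-13 is stably expressed as a fusion with GFP and FLAG at its C terminus. Sonicated chromatin was pulled down through the GFP part of this fusion, so the tagged protein stands for EGL-13 throughout. There were 2 biological replicates, numbered 3 and 4, and their sequencing depth is unknown here. Whole larvae were used, so the cells in which a region was occupied cannot be told from these lists.

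EGL-13 is a SoxD transcription factor of Caenorhabditis elegans that binds DNA through an HMG box. Genetic studies place it in the fate of the BAG and URX neurons, which sense carbon dioxide and oxygen, and in the uterine cells that connect the uterus to the vulva. A ranked peak list has no natural end: regions below a reproducibility threshold still mix occupied sites with background, and the rank at which a list stops is set by the threshold chosen.

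Sequences reaching 50 bases to each side of the summit, the position of highest signal in a region, show what these places look like. They are printed from the plus strand of WBcel235, which is ce11, for windows that hold no exon and do not lie on the 1 chromosome left out for sequences, which left 1329 of the 2205 regions. In the first set, 5 promoter regions show the short motifs described below, each being the strongest of these 1329 at a gene of the lists used here that holds the motif. The capitals mark GAGAGA (read as TCTCTC on the other strand) at mrps-16, GACGCA at nhr-119, TGACGT (or ACGTCA) at mdt-22, CCGCCC at nhr-105, and AACAAT (as ATTGTT), the core known for SOX proteins, at twk-43.
mrps-16, II:5474118-5474218: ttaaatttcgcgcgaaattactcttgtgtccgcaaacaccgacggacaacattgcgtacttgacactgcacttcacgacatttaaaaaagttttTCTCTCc
nhr-119, II:2800917-2801017: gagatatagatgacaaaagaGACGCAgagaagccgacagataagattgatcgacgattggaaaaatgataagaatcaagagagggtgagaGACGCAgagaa
mdt-22, II:10300502-10300602: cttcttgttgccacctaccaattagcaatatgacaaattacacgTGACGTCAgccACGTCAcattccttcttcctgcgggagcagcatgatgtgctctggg
nhr-105, IV:7049915-7050015: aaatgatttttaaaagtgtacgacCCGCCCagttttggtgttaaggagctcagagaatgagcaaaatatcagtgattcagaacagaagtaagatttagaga
twk-43, V:13346110-13346210: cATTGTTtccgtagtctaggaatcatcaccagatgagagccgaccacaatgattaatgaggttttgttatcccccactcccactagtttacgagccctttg
The mrps-16 gene encodes a mitochondrial ribosomal protein, nhr-119 and nhr-105 nuclear hormone receptors, mdt-22 a Mediator subunit and twk-43 a potassium channel. The summits lay 205 bp (mrps-16), 367 bp (nhr-119), 664 bp (mdt-22), 191 bp (nhr-105) and 118 bp (twk-43) upstream of the 5′ end. The second set holds the promoter regions of 4 genes of the BAG and URX neurons, with any of the 10 motifs searched in capitals. GAGAGA (as TCTCTC) occurs at tax-4 and TGATAA (as TTATCA) at gcy-9, while the windows of npr-1 and flp-8 hold none of the 10.
gcy-9, X:11338032-11338132: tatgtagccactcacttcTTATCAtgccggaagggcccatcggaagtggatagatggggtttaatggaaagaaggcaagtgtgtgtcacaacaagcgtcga
npr-1, X:4770071-4770171: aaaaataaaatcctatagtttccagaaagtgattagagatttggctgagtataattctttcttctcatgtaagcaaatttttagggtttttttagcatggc
tax-4, III:9180521-9180621: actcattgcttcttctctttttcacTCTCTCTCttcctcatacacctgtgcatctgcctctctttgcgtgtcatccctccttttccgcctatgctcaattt
flp-8, X:14880430-14880530: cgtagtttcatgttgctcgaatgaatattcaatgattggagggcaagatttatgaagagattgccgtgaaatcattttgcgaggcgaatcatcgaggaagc

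The rule set the signal values of the tier, so they are given as a description. Signal values, whose scale the files do not state, ran from 42.6 to 65.3 in the next tier with a median of 50.3, against a median of 102 in the optimal list and of 24.3 in the other weaker regions. All 2205 regions were 384 bp wide. Their −log10 q values lay between 1.29 and 2.66. The limits fell where neighbouring ranks hardly differed. The first 3 regions of the next tier, at ZC455.1, pqn-39 and T12A7.2, had signal values of 65.2857, 65.2339 and 65.2221, and the last 3 of the optimal list, at hlh-11, T25E4.1 and K11H12.8, had 65.3369, 65.3101 and 65.2961. At the other limit, the last 3 inside, at inft-2, R13A1.1 and vpat-1, had 42.5977, 42.5937 and 42.5887, and the next 3 outside, at par-1, plc-1 and npr-19, had 42.5763, 42.5729 and 42.5727.

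Most next-tier regions had a summit in the list of each replicate, though seldom a high-ranking one. A summit of replicate 3 lay within 100 bp of 2018 regions (91.5%, exact 95% interval 90.3 to 92.6) and one of replicate 4 within 100 bp of 1771 (80.3%, 78.6 to 82.0). Both replicates had one at 1611 regions (73.1%, 71.2 to 74.9), only replicate 3 at 407, only replicate 4 at 160, and neither at 27. Over all 30000 pooled regions the shares were 61.9% for replicate 3, 48.9% for replicate 4 and 26.4% for both. The share found in both replicates was 93.5% in the optimal list and 16.2% in the other weaker regions. The next tier thus lay between these sets, nearer to the optimal list. The pooled list was made from the reads of both replicates, so this recovery is no independent check of a region. Intervals cover counting error only.

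Support declined along the tier. With the tier cut by rank into 4 parts, a summit of both replicates was present at 80.1% of the 553 strongest regions (signal 56.1 to 65.3), 77.7% of the next 547, 67.9% of the next 552 and 66.5% of the 553 weakest (signal 42.6 to 45.8). In the 1108 regions directly below the tier, replicate 3 still had a summit at 86.2% and replicate 4 at 72%. The 1147 regions directly above it had 96.6% and 93.1%, so the decline ran across both limits.

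**Figure D1:**
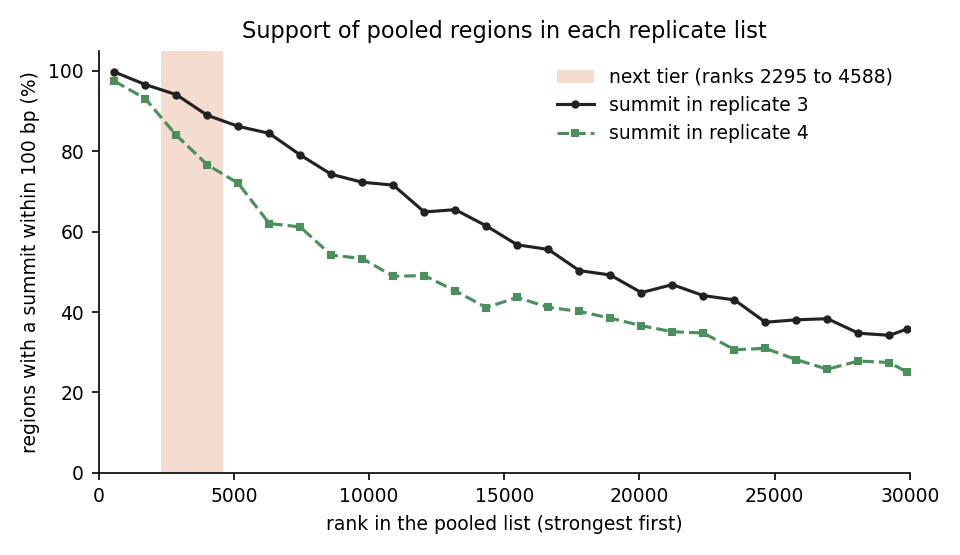
Share of pooled regions (y axis, %) with a summit of replicate 3 (circles) or replicate 4 (squares) within 100 bp, in bins of pooled rank (x axis), leaving out weaker regions that overlap an optimal one; the shaded band is the next tier. In the 2 bins of the tier the share was 94.1% and 89% for replicate 3 and 84% and 76.7% for replicate 4, on a decline that ran on to the end of the list.

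Few next-tier regions ranked high in both replicates, a count that the rule largely sets. The optimal list took the 2294 strongest pooled regions, and the pooled list was made from the reads of both replicates. Only 6 were among the 2294 strongest of both replicate lists, while 215 were among those of replicate 3 only and 338 of replicate 4 only. In the optimal list 1487 regions (64.8%) were among the strongest of both. Median ranks of next-tier summits were 3745.5 in replicate 3 and 4159 in replicate 4, and the ranks reached from 1109 to 29833 in replicate 3 and from 806 to 29555 in replicate 4. At the 1611 regions found in both, the replicate signal values had a Spearman's rho of -0.416, against 0.625 at 2146 optimal regions. The rule itself bears on this value, since a narrow range of pooled signal leaves a region that is strong in one replicate weaker in the other, and the points share the same libraries.

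**Figure D2:**
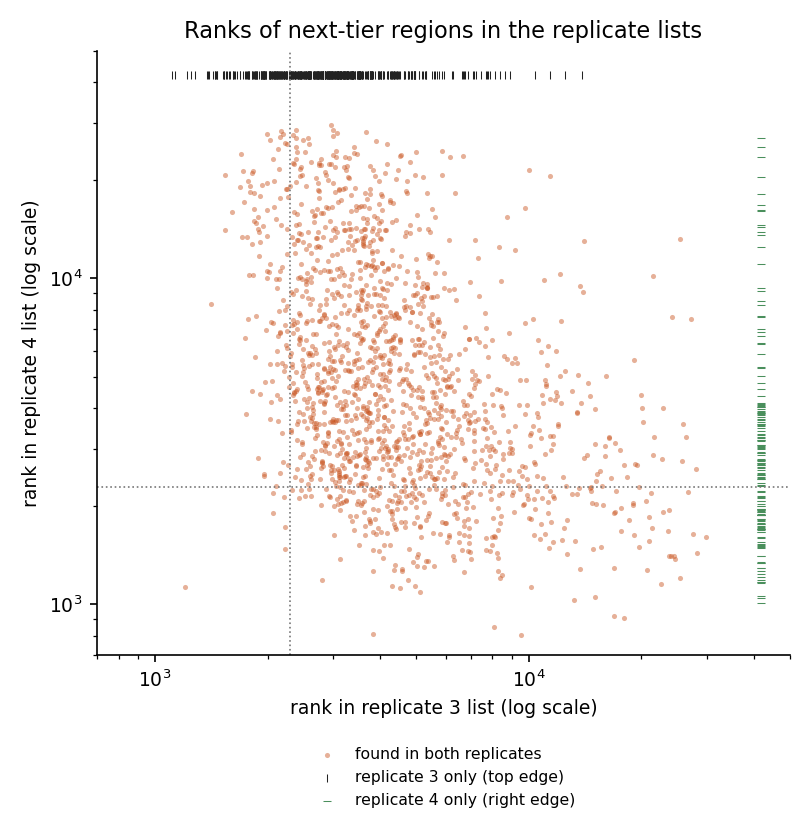
Rank of each next-tier region in the replicate 3 list (x axis, log scale) and in the replicate 4 list (y axis, log scale); each point is a region found in both replicates, ticks along the top are the 407 regions of replicate 3 only, ticks along the right the 160 of replicate 4 only, and dotted lines mark rank 2294. Of the points, 6 lie below both dotted lines, with egl-3 alone at the lower left, at ranks 1206 and 1130.

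The region with the best standing in both replicates was that of egl-3, which encodes a proprotein convertase that processes neuropeptides. It lay at V:10174854-10175237, 1293 bp upstream of the gene, and ranked 1206 in replicate 3 (signal 63.7) and 1130 in replicate 4 (signal 40.4), against 2858 in the pooled list. Next came an intron of npr-15, a neuropeptide receptor gene, with ranks 2072 and 1900, a place 2517 bp downstream of the 5′ end of tent-5 with ranks 2071 and 2191, and the promoter of F53H4.6 with ranks 2219 and 2135. The promoter of vha-15, a subunit of the vacuolar proton pump, ranked 2225 in replicate 3 and 1482 in replicate 4. Promoters of Y44A6C.1, F22F1.2, F53B7.4 and the pair vps-25 and uba-2, and a place 2822 bp upstream of csnk-1, a casein kinase gene, completed the 10 best. The worse rank of these 10 regions was 2456 or better.

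Other regions stood high in a single replicate list and had no summit in the other. These examples were chosen after their values were seen. The promoter of kin-14 ranked 1109 in replicate 3 with a signal of 66.5 and had no replicate 4 summit within 100 bp. A region 2054 bp upstream of M117.1 ranked 1011 in replicate 4 with a signal of 43.1 and had no replicate 3 summit. The promoter region shared by pcmd-1 and dhhc-7 ranked 1047 in replicate 4, again with no replicate 3 summit. Among the 27 regions found in neither list, the strongest was at pqn-39 on chromosome X, 687 bp upstream, with the second-ranked pooled signal of the tier at 65.2. The next were in an intron shared by pmr-1 and smu-1 (62.3), upstream of ndua-5, a gene of respiratory complex I (58.3), in an exon of mnk-1 (54.8) and 879 bp upstream of rfip-1 (53.6).

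The 20 strongest regions of the tier had signal values from 64.9 to 65.3, a range too narrow for their order to matter. Of these, 15 had their summit in a promoter window, which reached 1000 bp upstream and 200 bp downstream from the 5′ end of a protein-coding gene. They belonged to genes of varied function. Among them were ddx-23, a splicing helicase (149 bp upstream), vars-1, a valyl-tRNA synthetase (51 bp upstream), glb-9, a globin (824 bp upstream), eor-1, a zinc-finger transcription factor (183 bp upstream), dhhc-9, a palmitoyltransferase (117 bp upstream), smcl-1 (273 bp upstream) and metl-17 (15 bp upstream). The others with a promoter summit were pqn-39, T12A7.2, C29F3.7, F18A11.5, C24H10.2 and the gene pairs F33G12.7 with golg-2, Y47H9C.8 with eif-2Bbeta, and T07A9.15 with nog-1. Summits in introns of ZC455.1, rgs-6 (a regulator of G protein signalling) and mnk-1 (a protein kinase), and places 6240 bp upstream of unc-130, a forkhead factor, and 2381 bp upstream of che-7, an innexin, made up the rest. Of the 20 regions, 14 had a summit in both replicates, 4 in replicate 3 only, 1 in replicate 4 only and 1 in neither.

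Next-tier summits lay at promoters less often than optimal ones and in exons more often. A promoter window held 893 summits (40.5%, exact 95% interval 38.4 to 42.6), against 56.8% (54.7 to 58.8) of the optimal regions and 29.7% (29.1 to 30.2) of the other weaker ones. Exons held 166 (7.53%, against 1.96% and 17.4% in the same order), introns 477 (21.6%, against 16% and 26.8%) and intergenic sequence 669 (30.3%, against 25.3% and 26.2%). For promoters, introns and exons the tier stood between the other sets, and for intergenic sequence it had the highest share. Exon summits became more frequent down the tier, with 11.9% of the 553 weakest regions against 3.80% of the 553 strongest. Support in both replicates differed little by location, from 68.1% (60.4 to 75.1) of exon summits to 74.4% (71.4 to 77.2) of promoter summits, and these intervals overlap.

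**Figure D3:**
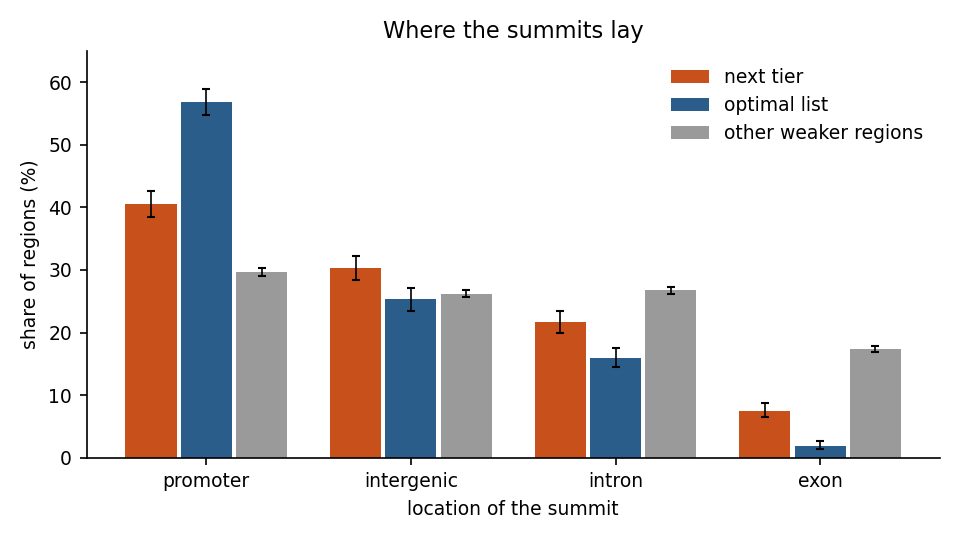
Share of regions (y axis, %) whose summit lay in each class of location (x axis) in the next tier, the optimal list and the other weaker regions; bars are shares and whiskers exact 95% intervals. Promoter shares were 40.5%, 56.8% and 29.7%, and exon shares 7.53%, 1.96% and 17.4%, in that order of sets.

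Within promoters, next-tier summits gathered upstream of the 5′ end, but less tightly than optimal ones. The median position was 235 bp upstream, with quartiles at 469 and 90 bp upstream, against a median of 204 bp upstream in the optimal list and 303 bp in the other weaker regions. Summits upstream of the 5′ end made up 89.7% of next-tier promoter summits, 94.5% of optimal and 81.7% of other weaker ones. The 200 bp directly upstream held 34.9% of them, against 44% and 22.5%. Promoter windows of genes on both strands, such as divergent promoters, held 17.8% (15.3 to 20.5) of next-tier promoter summits, 31.2% (28.7 to 33.8) of optimal and 8.82% (8.19 to 9.49) of other weaker ones.

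**Figure D4:**
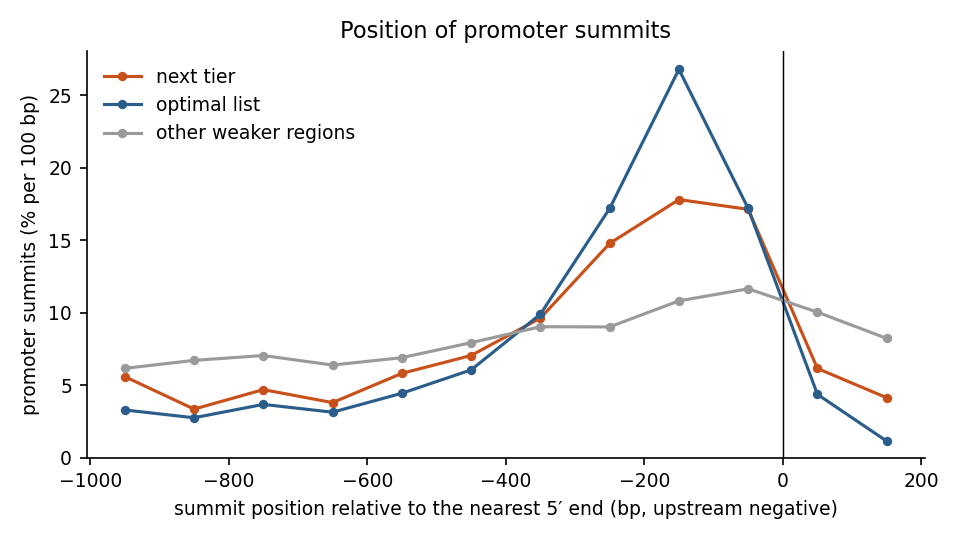
Share of promoter summits (y axis, % per 100 bp) by position relative to the nearest protein-coding 5′ end (x axis, bp, upstream negative) in the next tier, the optimal list and the other weaker regions. The bin from 200 to 100 bp upstream held 17.8%, 26.8% and 10.8% in that order, the highest bin of the first 2 sets.

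Chromosome X carried the largest number of next-tier regions. It had 543 (24.6%, exact 95% interval 22.8 to 26.5), or 30.6 per Mb, against 21.4% (19.7 to 23.1) and 27.7 per Mb of the optimal list and 20.4% of the other weaker regions. X makes up 17.7% of the nuclear genome. The autosomes ranged from 17 per Mb on V to 25 per Mb on III. Regions on X lay in promoter windows in 30.6% (26.7 to 34.6) of cases, the lowest share of the 6 chromosomes, against 47.7% (42.4 to 53.1) on I. Ranks from replicate 3 alone gave an X share of 20.8% in place of 24.6%, and ranks from replicate 4 alone 25.5%. On the autosomes, 65.2% (62.9 to 67.5) of next-tier summits lay in the central 50% of the chromosome, against 61.3% of optimal and 55.7% of other weaker ones.

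The tier also stood near optimal regions and, in part, near noncoding RNA genes. An optimal summit lay within 5000 bp of 775 next-tier summits (35.1%), against 22.7% of the other weaker ones, and within 1000 bp of 120 (5.44%, against 3.13%). The median distance was 9715 bp, against 15851 bp. A tRNA, snoRNA or snRNA gene lay within 200 bp of 80 next-tier summits (3.63%, exact 95% interval 2.89 to 4.50), against 7.02% of optimal and 0.927% of other weaker ones. These were a tRNA gene at 49 summits, a snoRNA gene at 25 and a snRNA gene at 6.

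The sequence at next-tier summits was richer in G and C than its surroundings. The median GC content within 50 bp of the summit was 39.6%, against 34.7% in windows centred 300 bp to each side. At optimal summits it was 46.5%, against 35.1% in their flanks, and at other weaker summits 33.7%, against 34.2%. GC content thus differed between the sets, and its part in the motif counts below was not tested. Motifs were searched on both strands and overlaps between different motifs were allowed. As a background, windows of the same length centred 100 bp upstream of all 19865 protein-coding 5′ ends were searched.

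GAGAGA, a GA repeat, was present at 335 next-tier summits (15.2%, exact 95% interval 13.7 to 16.8) and in 7.48% of flank windows. The summit share was 25.4% in the optimal list, 6.14% in the other weaker regions and 8.66% at all promoters. Along the tier it was 11.9% in the 553 weakest regions, against 17.2% in the 553 strongest. GACGCA was present at 7.07% of next-tier summits and in 2.22% of their flanks, against 15.3% of optimal summits, 2.48% of other weaker summits and 3.14% of all promoters. At exon summits of the tier, GACGCA had the same share at the summit and in the flanks, 2.41%, counted on 4 of 166 summits.

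For TGACGT, a CRE-like bZIP site, CCGCCC and the E-box motifs, the intervals of the tier and the optimal list overlapped. TGACGT was present at 6.94% (5.91 to 8.08) of next-tier summits and 3.13% of flanks, against 6.50% (5.52 to 7.58) of optimal summits, 3.26% of other weaker ones and 3.97% of all promoters. CCGCCC was present at 4.49% (3.66 to 5.44) of next-tier summits and 1.79% of flanks, against 5.32% (4.44 to 6.32) of optimal summits and 3.33% of all promoters. The E-box CACGTG was at 3.58% (2.85 to 4.45) of next-tier summits and 1.72% of flanks, against 4.27% (3.48 to 5.18) of optimal summits and 2.37% of all promoters. The E-box CAGCTG was at 2.59% (1.96 to 3.34) of next-tier summits and 2.04% of flanks, against 3.36% (2.66 to 4.18) of optimal summits and 2.01% of all promoters. At least 1 of the GA repeat, the GACGCA motif, the E-box CACGTG, the CRE-like site and the CCGCCC motif was present at 31.8% (29.9 to 33.8) of next-tier summits, 45.2% of optimal and 14.3% of other weaker ones.

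AACAAT, the core sequence bound by SOX proteins, was less frequent at next-tier summits than beside them. It was present at 178 summits (8.07%, exact 95% interval 6.97 to 9.29) and in 13.1% of flank windows, against 6.15% of optimal summits, 12.5% of other weaker summits and 14.1% of all promoters. Of the AT-rich motifs, TGATAA is known for GATA-type zinc fingers, TGTTTA for forkhead factors and TAATTA for homeodomains. Their next-tier summit shares were 8.84%, 7.44% and 5.03%, beside flank shares of 9.30%, 8.46% and 5.85%. All-promoter shares were 12.4%, 10.1% and 6.23%. Optimal summits had 4.36%, 5.49% and 3.44%, and other weaker summits 10.6%, 8.47% and 7.24%. Among these motifs, only TGATAA had an interval in the tier (7.69 to 10.1) clear of that of the optimal list (3.56 to 5.28). A match is only a match of letters in these windows.

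A next-tier summit lay in the promoter window of 1031 protein-coding genes, 5.19% of 19865, against 1681 genes (8.46%) with an optimal summit. Of the 1031 genes, 978 had no optimal summit and 53 had both. Most genes lack an optimal summit in any case, since 8.46% of all genes had one. The rule also left out regions that overlap an optimal one, so this small overlap is a description. Regions found in both replicates gave 774 of these genes. A next-tier summit lay in more than 1 promoter window for 168 of the 893 promoter regions and counted for each gene. Only 37 genes had 2 or more next-tier summits, and none had more than 3.

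The genes known for the BAG and URX neurons had the highest next-tier share of the gene lists compared, a place they lost with the ranks of either replicate alone. Of 23 such genes, 7 had a next-tier summit (30.4%, exact 95% interval 13.2 to 52.9), beside 5.19% of all genes, and none of these 7 had an optimal summit. A further 9 (39.1%) had an optimal summit, beside 8.46% of all genes, so that 16 of the 23 had a summit in 1 of the 2 sets and 7 in neither. Of all 19865 protein-coding genes, 2659 had a summit in at least 1 of these sets. Over all genes, 978 of the 1031 with a next-tier summit likewise had no optimal one. The optimal list held gcy-31, gcy-33, gcy-35 and gcy-36, guanylate cyclases, with ets-5, flp-17, flp-19, aha-1 and pde-1.

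The 7 next-tier genes encode proteins of different kinds. The promoter region of gcy-37, a soluble guanylate cyclase of the oxygen-sensing URX neurons, had a pooled signal of 61.3, with 41.2 in replicate 3 (rank 2366) and 20.6 in replicate 4 (rank 4205). The summit of gcy-9, the receptor-type guanylate cyclase needed for carbon dioxide sensing in BAG neurons, lay 199 bp upstream at X:11337890-11338273, with a signal of 57.1 pooled, 31.9 in replicate 3 and 25.4 in replicate 4. The channel subunits cng-1 and tax-4, which open in response to cyclic GMP, had signals of 59.3 (142 bp downstream of the 5′ end of cng-1, in a region that F14H8.8 shares) and 45.5 (975 bp upstream of tax-4). The summit of npr-1, a neuropeptide receptor that governs aggregation, lay 136 bp upstream with a signal of 53.2, and that of flp-8, a neuropeptide gene, 939 bp upstream with 45.2.

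The exception in support was ahr-1, the aryl hydrocarbon receptor, known for the fate of URX neurons. Its summit lay 45 bp upstream with a pooled signal of 61.2 and a signal of 31.8 in replicate 4 (rank 1710), and replicate 3 had no summit within 100 bp. The other 6 were found in both replicates. Replicate 4 ranked cng-1, gcy-9, npr-1 and flp-8 higher than replicate 3 did, and replicate 3 ranked gcy-37 and tax-4 higher. The count of 7 was 5 with a promoter window of 500 bp upstream (21.7%, beside 3.95% of all genes). It was 10 with 2000 bp (43.5%, beside 7.49%) and 11 with the nearest 5′ end alone (47.8%, beside 8.87%). With ranks from replicate 4 alone it was 4, and with ranks from replicate 3 alone 5. With replicate 4 alone its share was 17.4%, below the 26.7% of the pan-neuronal list, and with replicate 3 alone 21.7%, below the 23.3% of the insulin signalling list, beside 3.74% and 4.49% of all genes. In the remaining 7 genes, gcy-32, tax-2 and glb-5 had only an other weaker summit in the promoter window. For gcy-34, flp-13, flp-10 and egl-13 itself, the window held no summit of the optimal, next-tier or other weaker set. This count covers promoter windows only and leaves out weaker regions that overlap an optimal one. The next-tier summit nearest to egl-13 (X:5663837-5674067) lay 10694 bp beyond the gene.

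Genes of the basic cell machinery had next-tier shares above the 5.19% of all genes, with optimal shares higher still, beside 8.46% of all genes. A next-tier summit was present at 17 of 78 cytosolic ribosomal protein genes (21.8%, optimal 56.4%), 9 of 47 splicing genes (19.1%, optimal 34%), 8 of 42 translation factor genes (19%, optimal 42.9%), 6 of 33 proteasome genes (18.2%, optimal 33.3%) and 9 of 70 mitochondrial ribosomal protein genes (12.9%, optimal 21.4%). The nuclear pore, Mediator and TFIID list had 8 of 63 (12.7%, optimal 36.5%) and the vesicle sorting and Rab list 8 of 67 (11.9%, optimal 26.9%). With its optimal genes, the cytosolic ribosomal list reached 60 of 78, beside 2659 of all 19865 protein-coding genes. Ranks from replicate 4 alone gave 7 ribosomal, 2 splicing and 3 translation factor genes, and ranks from replicate 3 alone 12, 6 and 6. With replicate 4 alone the splicing share of 4.26% and the vesicle sorting share of 4.48% were near the 3.74% of all genes. With each summit assigned to its nearest 5′ end alone, translation factors had 2 of 42 (4.76%), below the 8.87% of all genes. Not all such groups shared this: of 73 chaperone genes, 1, dnj-7, had a next-tier and 28 an optimal summit, and of 58 vacuolar ATPase and respiratory chain genes 3 had a next-tier and 23 an optimal summit.

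Among the ribosomal genes, the strongest next-tier regions were those of rpl-1 (58.9, 261 bp upstream), rps-22 (58.3, 107 bp upstream) and the pair rpl-39 and rps-30, which share a region (58.1). The rps-22 region was found in replicate 3 only (rank 1761, signal 50.1). The region of eif-2Bbeta, a subunit of a nucleotide exchange factor of translation initiation, had 65 pooled and 62.2 in replicate 3 (rank 1249) and no replicate 4 summit. In contrast, the region of eif-1, an initiation factor, which the ESCRT gene vps-24 and pigb-1 share, had 63.4 pooled, 42.6 in replicate 3 and 17.8 in replicate 4. Genes of ribosome and translation thus included regions of very unequal replicate support. The strongest mitochondrial ribosomal regions, at mrps-25 (63.4, replicate 4 only) and mrps-16 (62.9, ranks 4765 in replicate 3 and 1187 in replicate 4), stood higher in replicate 4. Other leading members were rsp-8, a splicing factor (59.9), the proteasome ATPase rpt-6 (62.8, in a region that the histone gene his-72 shares), rpn-12 (58.4) and the nuclear pore gene npp-25 (61.5, in a region that mrps-10 shares).

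Genes of neuronal signalling had more next-tier than optimal summits, at shares close to that of all genes. Neuropeptide genes had 7 of 102 in the next tier (6.86%, exact 95% interval 2.80 to 13.6) and 2 in the optimal list. Neurotransmitter receptor and ion channel genes had 12 of 179 (6.70%, 3.51 to 11.4) and 4. These shares lie beside 5.19% and 8.46% of all genes, so the next-tier share of each list was near the background. This reading depended on the assignment: with the nearest 5′ end alone, neuropeptide genes had 16 (15.7%) and receptor and channel genes 25 (14%), against 8.87% of all genes. With 2000 bp upstream, neuropeptide genes had 12 (11.8%), against 7.49%, and with ranks from replicate 4 alone receptor and channel genes had 5 (2.79%), against 3.74%. Of the neuropeptide genes, flp-18 had a signal of 53.0 (354 bp upstream), flp-1 50.1 (52 bp upstream), nlp-4 49.8 (68 bp upstream, replicate 4 only) and nlp-49 48.5 (305 bp upstream), and the other 3 were nlp-47, nlp-15 and flp-8. The channel genes were led by the potassium channels twk-43 (59.4, 118 bp upstream), shk-1 (59.2, 157 bp upstream, with a further next-tier region) and kvs-3 (59.0, 146 bp upstream), and by glr-8, a glutamate receptor family gene (55.7, 767 bp upstream). All 4 of these channel regions were found in both replicates. Replicate 4 ranked twk-43 (1629), shk-1 (1650) and kvs-3 (1926) higher than replicate 3 did (6714, 6528 and 3622).

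The pan-neuronal list went the other way, with 3 of 30 genes in the next tier (10%) and 13 in the optimal list (43.3%). Over all genes these shares were 5.19% and 8.46%. Its next-tier genes were ric-19, tom-1 and ric-4, which act in secretion and synaptic release, and only tom-1 was found in both replicates. The count was unstable: 10 of the 30 (33.3%) with 2000 bp upstream, and 8 (26.7%) with ranks from replicate 4 alone. All genes had 7.49% and 3.74% under these settings. Genes of ciliated sensory neurons had 3 of 33, dyf-11, dyf-3 and klp-11, and genes of the Q neuroblast lineage 3 of 26, the receptor phosphatase gene ptp-3, rga-1 and the netrin receptor gene unc-40.

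Genes of transcription factors had shares near the 5.19% of all genes. Nuclear hormone receptors had 15 of 274 (5.47%) in the next tier and 11 in the optimal list, homeobox genes 5 of 93 (5.38%) and 5, and bHLH genes 2 of 37 (5.41%) and 4. The strongest receptor regions were those of nhr-105 (61.5, 191 bp upstream), nhr-38 (61.1, 716 bp upstream), nhr-202 (59.8, 100 bp upstream) and nhr-119 (56.8, 367 bp upstream), all found in both replicates. The homeobox genes were alr-1 (replicate 3 only), unc-62 (replicate 4 only), ceh-100, ceh-5 and ceh-20, with signals from 43.5 to 52.2. Beside ahr-1, the bHLH list held hif-1, the hypoxia-inducible factor, whose region 656 bp upstream had 64.1 pooled, 57.8 in replicate 3 (rank 1415) and 16 in replicate 4 (rank 8365), and which also had an optimal summit. With the nearest 5′ end alone, nuclear hormone receptors had 32 (11.7%) and bHLH genes 6 (16.2%), against 8.87% of all genes. None of the 5 SOX family genes had a next-tier or optimal summit, beside 5.19% and 8.46% of all genes. For the next tier, 0 of 5 allows up to 52.2%, so a lower share is not shown.

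Uterine and anchor cell genes, the other known field of EGL-13, had 2 of 21 in the next tier (9.52%, exact 95% interval 1.17 to 30.4) and none in the optimal list. Over all genes these shares were 5.19% and 8.46%. The interval holds 5.19%, and the list is too small for an empty optimal count to show a low share. The 2 next-tier genes were unc-40 (53.8, 288 bp upstream, replicate 3 only, in a region that npp-7 shares) and egl-27 (49.5, 334 bp upstream, both replicates). Among regulators of development and ageing, lin-13 (63.2, 796 bp upstream) had a next-tier and no optimal summit. The heterochronic gene lin-28 (63.7, 535 bp upstream) and the forkhead gene daf-16 (45.6, 417 bp upstream) had both. The Wnt list had 2 of 30 (6.67%), vang-1 and the kinase gene lit-1, beside 5.19% of all genes. The insulin signalling list had 3 of 30 (10%), akt-2, skn-1 and daf-16. It had 7 (23.3%) with ranks from replicate 3 alone, against 4.49% of all genes. With the nearest 5′ end alone it had 8 (26.7%), against 8.87% of all genes. Only regions found in both replicates gave 1 (3.33%), against 3.90%. The glia and excretory list had 3 of 25 (12%), exc-5, nhr-31 and lit-1. With ranks from replicate 4 alone it had 1 (4%), against 3.74% of all genes. The histone list had 4 of 50 (8%) and the lin list 4 of 47 (8.51%). The seam and hypodermis list had 1 of 23 (4.35%, exact 95% interval 0.110 to 21.9), the junction gene ajm-1. The germline list had 1 of 36 (2.78%, 0.0703 to 14.5), glp-4. Both intervals hold the 5.19% of all genes, so a lower share is not shown for them.

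Chemoreceptor, F-box, C-type lectin and P450 genes had shares below that of all genes. Chemoreceptor genes had 9 of 1300 in the next tier (0.692%, exact 95% interval 0.317 to 1.31) and 7 in the optimal list. Those with no optimal summit were led by str-12 (62.7, in a region that fbxa-153 shares), srh-166 (51), sre-4 (50.2) and sre-1 (49.4). The srh-2 gene (51.1) also had an optimal summit. F-box and MATH-BATH genes had 8 of 388 (2.06%), cuticle collagens 4 of 173 (2.31%), C-type lectins 4 of 237 (1.69%) and cytochrome P450 and glucuronosyltransferase genes 2 of 141 (1.42%). The upper bounds for chemoreceptors, F-box genes, C-type lectins and the P450 group lie below the 5.19% of all genes. Insulin peptides (0 of 38, which allows up to 9.25%), Hedgehog-related genes (0 of 59, up to 6.06%), and the pharynx (0 of 22, up to 15.4%) and intestine (0 of 30, up to 11.6%) lists had none. These bounds and that of the collagens (5.81%) lie above 5.19%, so a lower share is not shown for them. Body wall muscle had unc-54, the major myosin heavy chain (51, 164 bp upstream), and unc-60 (47.7), 2 of 35 (5.71%).

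**Figure D5:**
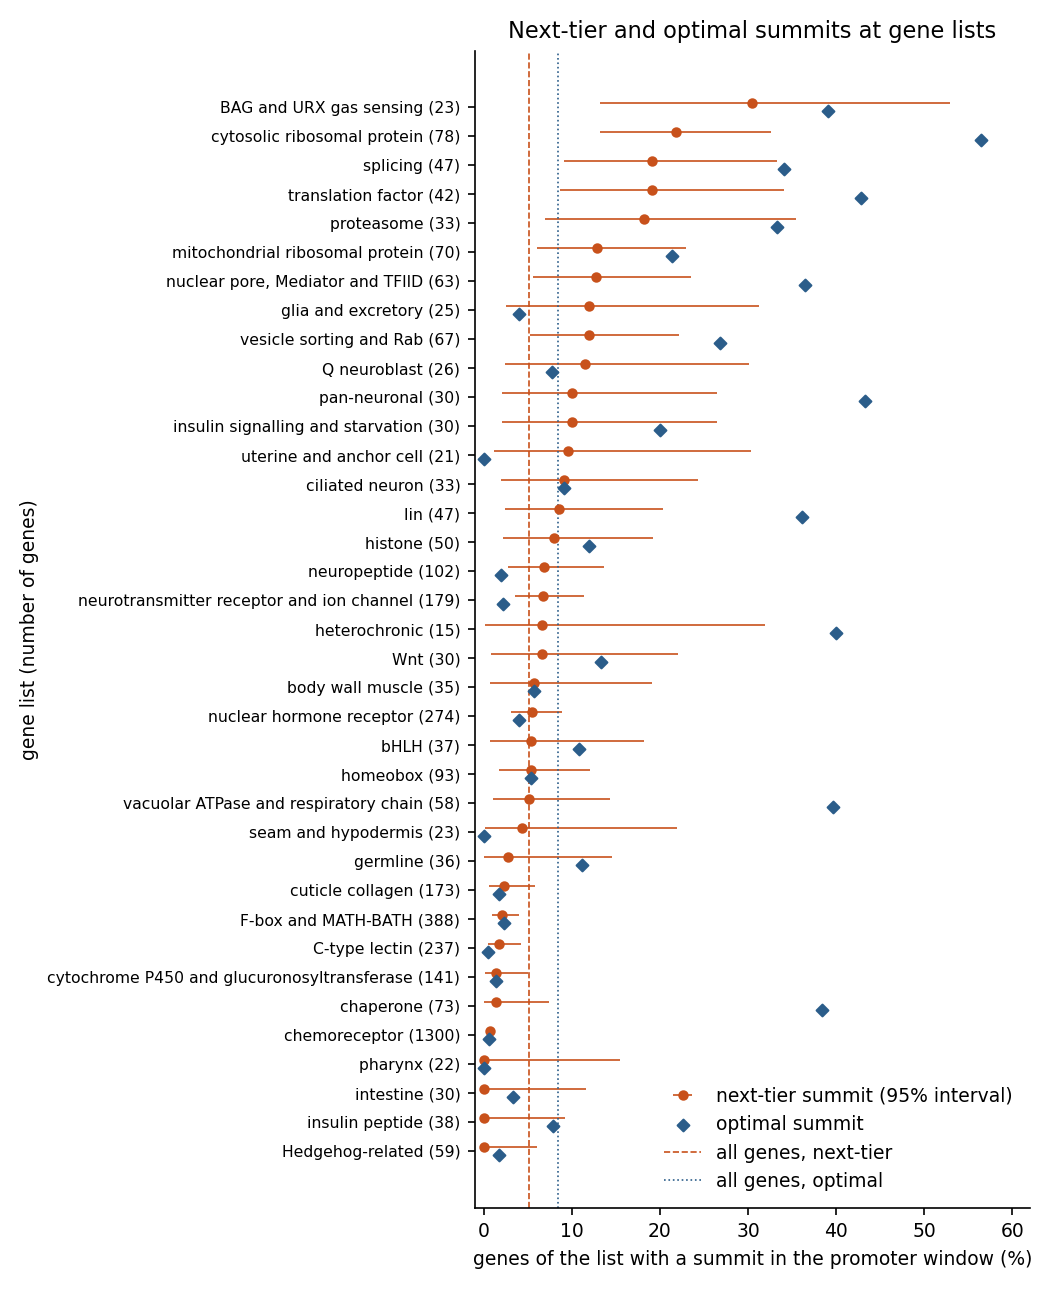
Share of each list's genes (x axis, %) with a summit in the promoter window, for 37 gene lists (y axis, number of genes in brackets); circles are next-tier shares with exact 95% intervals, diamonds optimal shares, and vertical lines the shares of all genes (5.19% next tier, 8.46% optimal). The BAG and URX list leads at 30.4%, 24 lists lie above the all-gene share, and 10 have more next-tier than optimal genes.

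Gene name classes group genes by the letters of their names. Of 117 classes with 15 or more genes, the highest next-tier shares were those of eif (8 of 25, 32%), rpl (11 of 47, 23.4%), glb (7 of 34, 20.6%), rps (6 of 31, 19.4%), daf (5 of 26, 19.2%), mec (3 of 16, 18.8%), taf (3 of 17), tbc (3 of 17), mrps (5 of 29) and vps (5 of 31). Over all genes the shares were 5.19% in the next tier and 8.46% in the optimal list. Being the highest of 117, the class shares are a description. The globin class had 7 next-tier and 2 optimal genes. Its members were glb-9 (65.2), glb-4 (64.5), glb-17 (64.4), glb-25, glb-20, glb-27 and glb-18, of which 5 were found in both replicates. The mec class, named for touch insensitivity, had mec-8, mec-12 and mec-10 in the next tier and none in the optimal list, and the tbc class, Rab GTPase-activating proteins, had tbc-11, tbc-1 and tbc-14 and 1 optimal gene. No next-tier gene was found in 53 of the 117 classes, which together hold 1795 genes, and 31 of these had no optimal gene. Most of these classes are too small for an empty count to show a low share: 0 of 15 cox genes allows up to 21.8%. Of the empty classes, only srw, srx, cyp and srbc had upper bounds below the 5.19% of all genes.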

How the data were processed

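EGL-13 binding was measured by ChIP-seq in 2 libraries of whole L1 larvae, biological replicates 3 and 4 per the labels. The authors deposited narrowPeak lists on ce10 and ce11, per replicate, on pooled reads and after an IDR threshold, and a control alignment entered them per the deposited file descriptions. The signal of a region, as deposited by the authors, has no stated scale, and each region also has a −log10 q value that the authors deposited. For the aligner, the IDR threshold and the peak caller, a name or value is not given in the sources used here. Read depth is unknown, and 0 sample columns were left unused.

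The next tier is ranks 2295 to 4588 of the pooled ce11 list by signal, without overlap (1 bp) with an optimal region. Support meant replicate summits within 100 bp. Windows of 101 bp at the summit, and at 300 bp to each side, gave GC content and motifs. Genes came from Ensembl release 115 on WBcel235, whose chromosome names match the lists. Sequence was read from the RefSeq genome of the same assembly, with none printed from chromosome I, and the sequence of 1 region is not reported here. A summit was assigned to every promoter window that held it, else to the gene around it, else to the nearest 5′ end. Named genes are those of the 20 strongest regions, of the 3 regions on each side of each rank limit, of the 10 regions best in both replicates, of the 5 strongest found in neither, of the printed sequences, egl-13, up to 4 genes per list with those lacking an optimal summit first, and the 10 leading name classes of at least 15 genes; where a list is small the text names more. Of the list entries, 6 are not names of protein-coding genes. The members and lists were chosen with earlier results of these data known.

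The design has 1 group, so no test between conditions was run. Shares have exact (Clopper-Pearson) 95% intervals, which cover counting error only. The counting was tested on simulated data. Alternatives covered the rank interval, the overlap rule, each replicate alone, the promoter window, gene assignment, the summit distance, the motif window and ce10. Scripts ran under Python 3.11.15 with pandas 2.3.3 for tables, NumPy 2.4.6, SciPy 1.17.1 for intervals, and matplotlib 3.10.9 for plots.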

Additional observations from a re-analysis of the deposited data

How the results depend on the processing

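Of 92 values under alternatives, 57 stayed within the exact 95% interval of the reported share or median, or within 1.5 times the reported count, and 35 moved outside. With only the stronger ranks of the tier (1100 regions), the promoter share was 43.8%, support 78.9% in both replicates, 94.1% in replicate 3 and 84% in replicate 4, GAGAGA 16.9%, and the genes numbered 578, of which 547 had no optimal summit. Promoter windows of 500 and 2000 bp upstream gave promoter shares of 31.1% and 54.8%. Assigning each summit to its nearest 5′ end alone gave 1763 genes. Support in both replicates, replicate 3 and replicate 4 was 46.9%, 78.1% and 63.2% with summits within 50 bp, 88.1%, 97.8% and 90.3% within 200 bp, 92.8%, 98.8% and 94% with any overlap of regions, and 17%, 59.5% and 43.5% against replicate lists cut to the length of the 2 sets together. GAGAGA and AACAAT were at 8.71% and 3.90% of summits within 25 bp, and 25.9% and 16.9% within 100 bp, and the median GC content in a window of 100 bp to each side was 38.3%. The same rank interval of 1 replicate list in place of the pooled one (without replicate 3, then without replicate 4) gave promoter shares of 35.5% and 39.2%, X shares of 25.5% and 20.8%, GAGAGA at 10.8% and 14.1%, AACAAT at 9.75% and 8.89%, and a median GC content of 38.6% and 37.6%. In the list of replicate 4 alone, 41.8% of regions had a replicate 3 summit, and in that of replicate 3 alone 47.3% had a replicate 4 summit. The causes were not tested. Keeping overlaps with optimal regions, leaving out summits within 1000 bp of an optimal one, and ce10 lists moved no value, nor did 2 alternatives added after seeing the data: only regions found in both replicates, and no tRNA, snoRNA or snRNA gene within 200 bp. No paired analysis was possible because the study has 1 group. Read depth is unknown, so a region missing from a replicate list is not shown to be unoccupied there.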
